A study of Danio rerio with 13 samples.

Results

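The alpha-cell marker genes described here are the genes that the study lists as enriched in zebrafish pancreatic alpha cells, a list it took from earlier RNA-seq studies of sorted islet cells and not from these samples. Of the 50 genes in that list, 5 were set aside, among them the glucagon genes gcga and gcgb, pnoca and scinlb, which left 45 genes. A gene ID of the count tables was found for 43 of them, out of 31901 IDs in all. The symbols pcdh1b and lgi2a could not be told apart from a paralog among the IDs, so both are named here without values, and csrnp1b was matched by elimination, because its paralog csrnp1a has an ID of its own. None of the 45 stands in the beta, delta, epsilon or pan-endocrine column of the same table.

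RNA was measured in 13 samples of GFP+ cells sorted from AB zebrafish, in 4 groups. Mutant pancreatic endocrine cells (PECs) came from the dorsal pancreatic bud of Pax6b-/- embryos at 27 hpf (hours post fertilization, 3 samples), against wild-type PECs of the same age (3 samples). Mutant enteroendocrine cells (EECs), the hormone cells of the gut, came from intestines of Pax6b-/- larvae at 4 dpf (days post fertilization, 3 samples), against wild-type EECs of the same age (4 samples). Fish of every group, wild type included, carried the transgene Tg(pax6b:GFP)ulg515, in which pax6b regulatory DNA drives GFP. The mutants were homozygous for the null allele pax6bsa0086 and were picked by a missing or reduced lens. The study reports a later check of that choice, in which every pax6b read of the mutant samples carried the allele. Each sample pooled the cells of many animals, and the labels do not say that equal replicate numbers share a day or a clutch.

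Alpha cells secrete glucagon, which raises blood glucose by driving the liver to release it. Zebrafish carry a pair of glucagon genes, gcga and gcgb. Pax6 is a paired-domain and homeodomain transcription factor of islet and gut hormone cells, and in mice it activates the glucagon gene. EECs of the gut also make proglucagon, from which GLP-1 is cut, so an alpha-cell list can be read in both tissues.

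Levels are given as normalised CPM, the CPM of a gene after the total count of each sample was scaled by its TMM factor (a factor for composition that edgeR estimates). Values follow the order of the replicate numbers, and the fourth wild-type EEC value belongs to a sample that the fits leave out, as in the study's own triplicates. Total counts ran from 22423938 to 61895597 per sample with a median of 33343637, so 3 counts, taken as the floor of detection, amounted to 0.044 to 0.133 normalised CPM. The pax6b transcript was counted at 3278, 2801 and 6464 normalised CPM in mutant PECs, against 5476, 4100.2 and 2279 normalised CPM in wild-type PECs, and at 1063, 1347 and 1417 normalised CPM in mutant EECs, against 592, 701, 522 and 923 normalised CPM in wild-type EECs. It was called higher in mutant EECs (log2 fold change 1.03 ± 0.22 (SE), adjusted p = 0.0278) and not called in PECs (adjusted p = 0.934), so the transcript count alone does not mark the null genotype. Of the glucagon genes, gcgb stood at 17.1, 41.9 and 32.0 normalised CPM in mutant PECs, against 12186, 10736 and 14895 normalised CPM in wild-type PECs. The level of gcga was 2520.4, 2587 and 3044 normalised CPM in mutant PECs, against 1041, 997 and 2412 normalised CPM in wild-type PECs. Mutant PECs were lower for gcgb (log2 fold change -8.68 ± 0.46 (SE), adjusted p = 5.80e-07) while gcga did not pass the test (log2 fold change 0.91 ± 0.33 (SE), adjusted p = 0.131). Every mutant PEC sample was nevertheless above every wild-type one for gcga, with wild-type replicate 3 close below the mutants. In EECs gcgb was lower in mutants too, at 1.63 to 2.85 normalised CPM, against 56.0 to 251 in wild type. Its log2 fold change there was -6.30 ± 0.61 (SE), adjusted p = 0.00146, and gcga did not pass (-0.53 ± 0.30 (SE), adjusted p = 0.46). Among the other genes set aside, pnoca was called lower and scinlb higher in mutant PECs.

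Other lists moved in the same samples, and their part in the results below was not tested. Summed over its genes, the epsilon column reached 13890 to 14400 normalised CPM in mutant PECs and 7666 to 11570 in wild-type PECs, with 20 of 44 tested genes higher and 1 lower. The beta column summed to 11580 to 15070 normalised CPM in mutant PECs and 22170 to 31010 in wild-type PECs (1 of 46 higher, 19 lower). Much of that difference was the insulin gene ins alone, with a mean of 80.1 normalised CPM in mutant PECs and 10965 in wild-type PECs. For the delta column the sums were 15470 to 19340 normalised CPM in mutant PECs and 52800 to 73930 in wild-type PECs (4 of 46 higher, 16 lower). Most of that difference was the somatostatin genes sst1.2 and sst2. Their means were 3142 and 4505 normalised CPM in mutant PECs, against 28122 and 20378 in wild-type PECs. The sum of the pan-endocrine column overlapped between the genotypes in both tissues, at 31250 to 37030 normalised CPM in mutant PECs and 33430 to 39970 in wild-type PECs, and 30840 to 35810 in mutant EECs and 27530 to 40280 in wild-type EECs. Single genes of that column did move, 6 of 49 higher and 5 lower in mutant PECs, and 10 of 49 higher and 1 lower in mutant EECs. That is 22.4% called in each tissue, against 11.2% of all genes in PECs and 4.18% in EECs. In EECs the epsilon column summed to 22240 to 26250 normalised CPM in mutants and 15190 to 18320 in wild type (11 of 41 higher, 1 lower), and the enterocyte genes to 1052 to 2252 in mutants and 1866 to 2896 in wild type (1 of 10 lower). The 2 matched goblet cell genes summed to 27.7 to 33.1 normalised CPM in mutant EECs and 38.4 to 108 in wild-type EECs (1 of 2 lower). The 9 matched exocrine digestive enzyme genes were low in PECs, at 3.67 to 4.28 normalised CPM in mutant PECs and 11.2 to 49.9 in wild-type PECs. In these bulk samples, fewer cells of a type and less RNA per cell cannot be told apart. Wild-type PEC replicate 3 stood apart: it was the highest of the 3 wild-type PEC samples for 33 of the 43 alpha genes, against 44.6% of all tested genes. It differed beyond the alpha genes too. The 4 matched red blood cell genes summed to 31.9 normalised CPM in it, against 227 and 222 in replicates 1 and 2. Its exocrine sum was 49.9, against 11.2 and 16.5, and it was the deepest library, at 61895597 counts. Values without this sample are given beside the genes whose call or size it changes.

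The 43 alpha genes were broadly expressed in both tissues. Above the floor in every one of the 13 samples were 40 of them, 39 were above 1 normalised CPM and 30 were above 10 normalised CPM in every sample. The exceptions at the low end were the zinc transporter gene slc30a2, the potassium channel subunit gene dpp6a, the neuropeptide gene npb and vill, a villin-like gene, each of which was under 1 normalised CPM in at least 1 sample. Summed over the 43 genes, the level was 7399 to 9083 normalised CPM in mutant PECs and 6984 to 8976 in wild-type PECs, and 5514 to 5692 in mutant EECs and 5462 to 6847 in wild-type EECs. For these 43 genes the ranges of mutant and wild type overlapped in both tissues. That sum leaves out the genes set aside, whereas the beta, delta and epsilon sums keep their hormone genes. With the genes set aside put back, the 48 matched alpha genes summed to 11200 to 13030 normalised CPM in mutant PECs. In wild-type PECs they summed to 18790 to 26850, without overlap, and much of the difference was gcgb. In EECs the ranges still overlapped (7764 to 8636 in mutants, 7995 to 10230 in wild type).

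**Figure D1:**
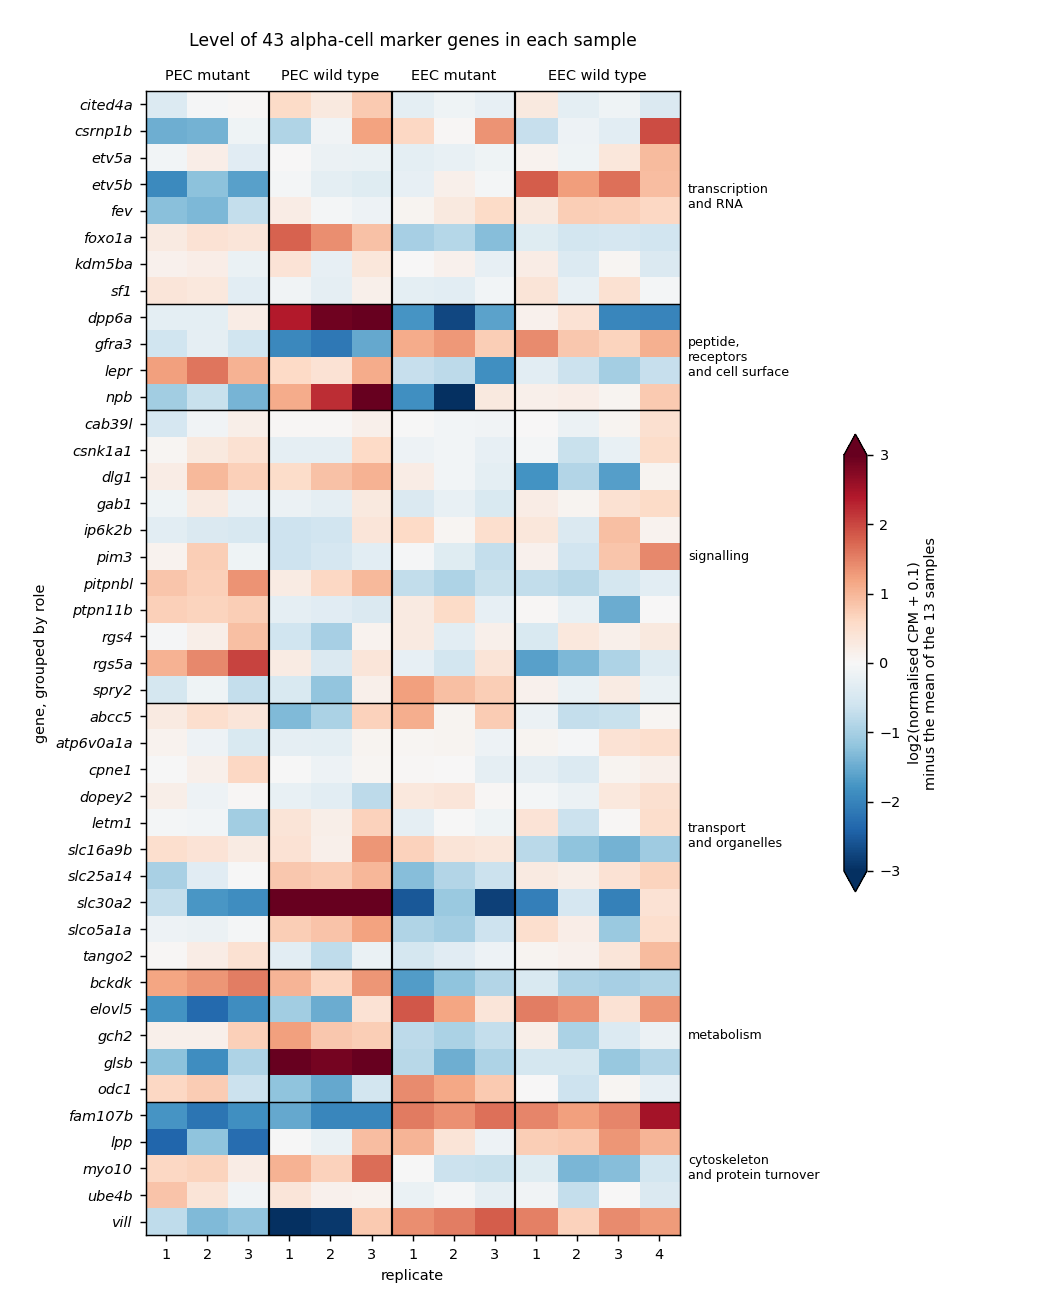
Level of the 43 alpha-cell marker genes with a gene ID in each of the 13 samples, as log2(normalised CPM + 0.1) minus the mean of the gene over the 13 samples, with genes in rows by role and samples in columns by group. The darkest red cells belong to slc30a2, glsb, dpp6a and npb in wild-type PECs, and the row of vill is dark blue in wild-type PEC replicates 1 and 2 but not in replicate 3.

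The comparison of mutant with wild-type PECs asked which alpha genes depend on Pax6b in the early pancreas. All 43 genes were tested, and 14 were called at an adjusted p under 0.1 in edgeR's quasi-likelihood test, with the adjustment (Benjamini-Hochberg) made over every gene that entered the fit. That is 32.6% of the list against 11.2% of all genes tested. Lower in mutants were 10 of them (5.74% of all genes were) and higher were 4 (5.43% of all genes were). The remaining 29 did not pass. The median log2 fold change was -0.12 over the 43 genes and 0.02 over all genes. Unlike the 43 alpha genes, the beta, delta and epsilon columns keep their defining hormone genes, here and in the comparisons below. The sizes of the shares are therefore not like for like. In the same PEC fit the called share was 43.5% for the beta column, 43.5% for delta, 47.7% for epsilon and 22.4% for pan-endocrine. A share above that of all genes was therefore not particular to the alpha list. Over all 43 genes the mutant PEC samples lay wholly below wild type for 15 (13.0% of all genes) and wholly above for 6 (11.0% of all genes). Among the 14 called genes the groups did not overlap for 13. The calls came from the same samples, so this last count is no further support for them. Without wild-type PEC replicate 3 the count was 19 of 43, against 20.2% of all genes tested, and it held all 14 plus abcc5, lepr, rgs4, tango2 and vill, all 5 of them higher in mutants. The split was then 9 higher and 10 lower. Without mutant PEC replicate 1 the count was 9 of 43, where 1148 of all 19141 genes tested were called. With library totals in place of TMM the all-gene split was 1195 higher and 677 lower, against 1015 and 1074 with TMM, and the all-gene median log2 fold change was 0.24. On that scale 13 alpha genes were called, without foxo1a and slco5a1a and with tango2.

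In EECs, 41 of the 43 genes passed the filter on low counts, which removed dpp6a and slc30a2, and 7 were called, or 17.1% against 4.18% of all genes tested. Higher in mutant EECs were 5 (1.82% of all genes were) and lower were 2 (2.36% of all genes were). The samples of the groups in the fit did not overlap for any of the 7, which adds no support, since those samples gave the calls. Over the list, mutant EECs lay wholly above wild type for 7 genes (11.4% of all genes) and wholly below for 6 (8.15% of all genes). The median log2 fold change was -0.08 over the list and 0.02 over all genes. In the same EEC fit the called share was 16.3% for the beta column, 18.2% for delta, 29.3% for epsilon and 22.4% for pan-endocrine. A share above that of all genes was therefore not particular to the alpha list. Between the tissues, 4 genes were called in both and moved the same way in both: etv5b and slc25a14 were lower, odc1 and rgs5a higher. That is 4 of the 41 genes tested in both tissues, against 1.36% of all genes tested in both (1.61% when opposite directions are included). Called in PECs alone were 10 genes, of which slc30a2 and dpp6a could not be tested in EECs, in EECs alone 3, and 26 in neither. A call in 1 tissue alone does not show that the tissues differ, and the test of that difference follows the gene descriptions.

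**Figure D2:**
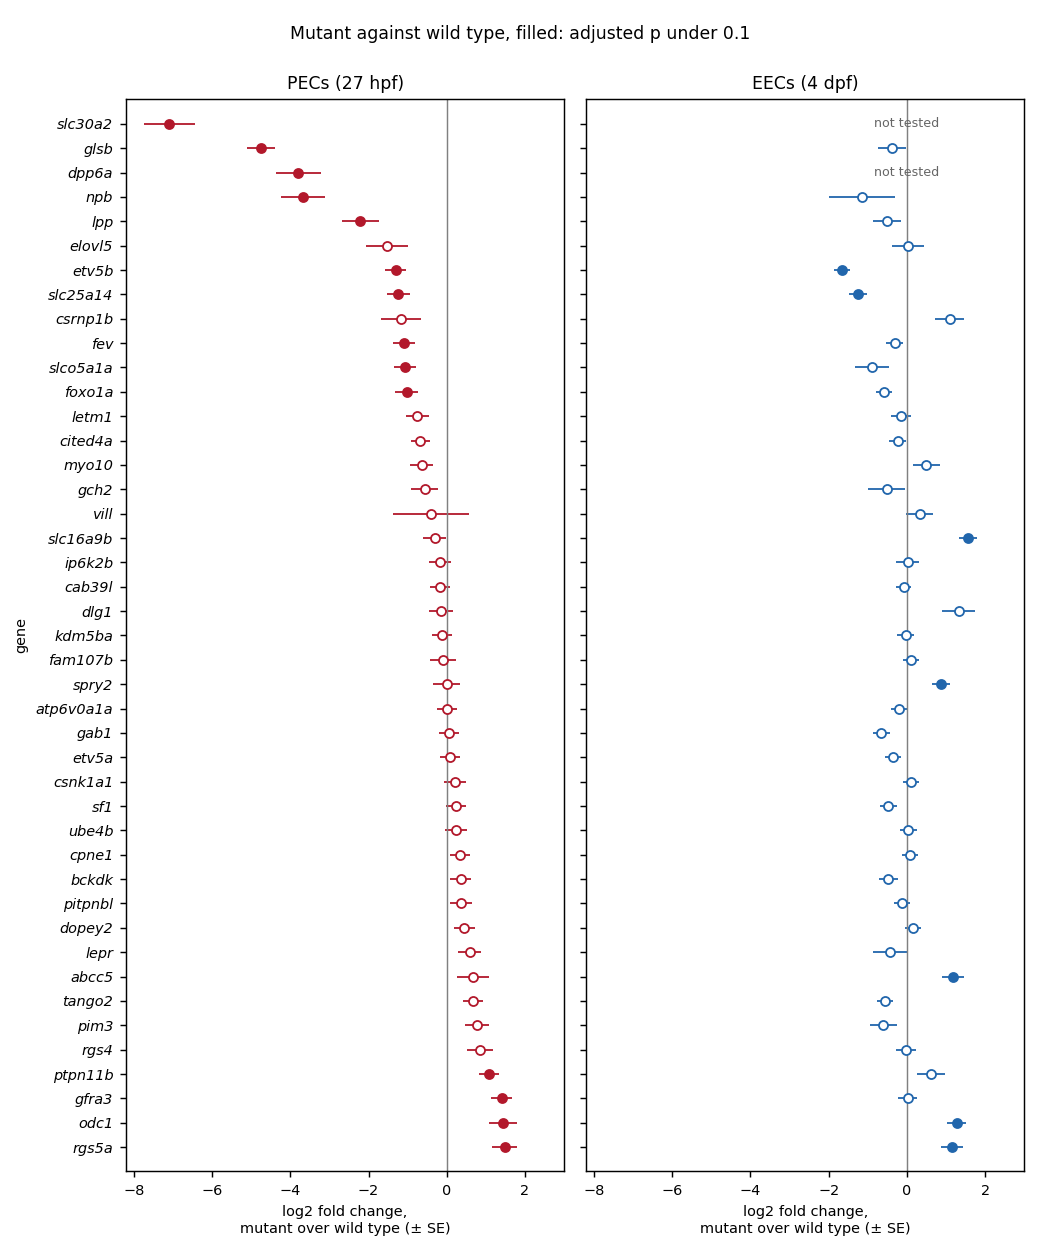
Log2 fold change of each of the 43 alpha-cell marker genes in mutant over wild-type PECs (left) and mutant over wild-type EECs (right), with bars of 1 standard error and filled points for an adjusted p under 0.1. The genes are ordered by their value in PECs, where 14 points are filled, and the right panel has 7 filled points and no value for slc30a2 and dpp6a, which were not tested there.

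Of the 8 genes for transcription factors and RNA-binding proteins, 3 were lower in mutant PECs (11.2% of all genes were called there) and 1 was lower in mutant EECs (4.18% of all genes called). These shares are the background for each group of genes below. The gene moved in both tissues was etv5b, an ETS-family transcription factor that FGF-ERK signalling induces. It stood at 64.7, 104 and 79.2 normalised CPM in mutant PECs, against 233, 197 and 189.6 normalised CPM in wild-type PECs. Every mutant PEC sample was below every wild-type one, with a log2 fold change of -1.31 ± 0.27 (SE), adjusted p = 0.00904. In EECs the counts gave 206, 269 and 233 normalised CPM in mutant EECs, against 851, 580.0, 765 and 465 normalised CPM in wild-type EECs, again without overlap, and a log2 fold change of -1.66 ± 0.21 (SE), adjusted p = 0.00153. Its close paralog etv5a was not called in either tissue, with a log2 fold change of 0.08 in PECs (95% interval -0.47 to 0.62) and -0.36 in EECs (-0.81 to 0.09). Its levels were 66.8 to 97.1 normalised CPM in mutant PECs and 72.9 to 84.4 normalised CPM in wild-type PECs.

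Another ETS factor, fev, which marks serotonin neurons and islet progenitors in mice, had 217, 204 and 317 normalised CPM in mutant PECs, against 609, 500.3 and 471 normalised CPM in wild-type PECs. The mutant samples were all lower (log2 fold change -1.09 ± 0.28 (SE), adjusted p = 0.0283), though the call was lost without wild-type PEC replicate 1 (adjusted p = 0.123) or without mutant PEC replicate 1 (0.164) or 2 (0.127). In EECs fev ranged over 547 to 774 normalised CPM in mutant EECs and 638 to 873 normalised CPM in wild-type EECs and did not pass (log2 fold change -0.32 ± 0.23 (SE), adjusted p = 0.583). The forkhead factor gene foxo1a, whose product insulin signalling keeps out of the nucleus, had 712, 794 and 764 normalised CPM in mutant PECs, against 2014, 1551 and 1086 normalised CPM in wild-type PECs. The mutant values lay close together and under all wild-type ones. On the log2 scale the wild-type values themselves spread nearly as far as the difference (log2 fold change -1.03 ± 0.29 (SE), adjusted p = 0.0478). That call was lost when any one of wild-type PEC replicates 1 and 2 or mutant PEC replicates 1 and 2 was left out (adjusted p between 0.125 and 0.231). In mutant EECs foxo1a was below all wild-type EECs, at 245 to 329 normalised CPM in mutant EECs and 399.8 to 459 normalised CPM in wild-type EECs, but it did not pass (log2 fold change -0.59 ± 0.20 (SE), adjusted p = 0.162).

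With the samples and filter given above, edgeR called no other gene of this group in either tissue. For csrnp1b, a nuclear protein gene of the cysteine-serine-rich family, the PEC ranges overlapped at 4.77 to 12.2 normalised CPM in mutant PECs and 7.12 to 31.3 normalised CPM in wild-type PECs, the highest of them in wild-type PEC replicate 3. The EEC values were 20.6, 13.6 and 34.0 normalised CPM in mutant EECs, against 8.27, 12.1, 10.8 and 52.5 normalised CPM in wild-type EECs, so mutants were above the 3 wild-type samples of the fit and below the fourth. DESeq2 called csrnp1b in EECs (log2 fold change 1.09, adjusted p = 0.0836), as did edgeR without the filter on low counts (1.12, adjusted p = 0.087), and in PECs it was called lower without mutant PEC replicate 3 (-1.77, adjusted p = 0.0942). The coactivator gene cited4a, whose product binds CBP and p300, had 112 to 152 normalised CPM in mutant PECs and 183 to 257 normalised CPM in wild-type PECs, with no overlap and a log2 fold change of -0.67 ± 0.25 (SE), adjusted p = 0.142, and it was called in the fit of all 12 samples (adjusted p = 0.0898). The histone demethylase gene kdm5ba and the splicing factor gene sf1 had log2 fold changes of -0.12 and 0.23 in PECs. In EECs kdm5ba was at -0.03 and sf1 at -0.48 on the same scale. By a reference annotation, sf1 is the single matched gene of the list on the chromosome of pax6b itself, and it was called in neither tissue.

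Of the 4 matched genes for peptides, receptors and the cell surface, 3 were called in PECs, 2 lower and 1 higher. The gene npb encodes the precursor of neuropeptide B, a ligand of G protein-coupled receptors. It had 1.50, 1.98 and 1.15 normalised CPM in mutant PECs, against 6.95, 15.2 and 38.1 normalised CPM in wild-type PECs. All wild-type samples were higher than the mutants but differed several-fold among themselves, replicate 3 being the highest. The log2 fold change was -3.67 ± 0.56 (SE), adjusted p = 0.00119, and without replicate 3 it was -2.88 (adjusted p = 0.00248). In EECs npb was low, at 0.818, 0.194 and 3.95 normalised CPM in mutant EECs, against 3.58, 3.69, 3.40 and 5.58 normalised CPM in wild-type EECs. There, 1 mutant sample fell among the wild-type ones, and the log2 fold change of -1.14 ± 0.84 (SE), adjusted p = 0.602 did not pass.

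The gene dpp6a encodes an auxiliary subunit of A-type potassium channels. Its levels were 0.798, 0.792 and 1.18 normalised CPM in mutant PECs, against 5.64, 8.12 and 26.0 normalised CPM in wild-type PECs. The groups did not overlap, and wild-type PEC replicate 3 was again far above the other two. The log2 fold change was -3.80 ± 0.58 (SE), adjusted p = 0.00115, or -2.91 without that sample (adjusted p = 0.00206). EECs had 0.219, 0.0647 and 0.257 normalised CPM in mutant EECs, against 1.09, 1.39, 0.181 and 0.177 normalised CPM in wild-type EECs, so few counts that the gene was not tested there. In the other direction, gfra3, the gene of a co-receptor that binds artemin together with Ret, had 54.6, 69.5 and 55.3 normalised CPM in mutant PECs, against 21.6, 18.6 and 28.8 normalised CPM in wild-type PECs. All mutant PEC samples were higher (log2 fold change 1.40 ± 0.27 (SE), adjusted p = 0.00593). EECs carried more of it in either genotype, at 179.7, 204 and 138 normalised CPM in mutant EECs, against 223, 146, 132 and 174 normalised CPM in wild-type EECs, with overlapping groups and a log2 fold change of 0.02 (95% interval -0.50 to 0.55). The leptin receptor gene lepr had 24.2 to 35.8 normalised CPM in mutant PECs and 15.9 to 25.6 normalised CPM in wild-type PECs. It passed in neither tissue (log2 fold change 0.59 ± 0.29 (SE), adjusted p = 0.282 in PECs and -0.44 ± 0.43 (SE), adjusted p = 0.712 in EECs), and in PECs it was called once wild-type PEC replicate 3 was left out (0.78, adjusted p = 0.0984).

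Signalling genes made up 11 of the 43, and the 2 called in each tissue were all higher in mutants. RGS proteins speed up GTP hydrolysis by G alpha subunits and so shorten the signal of G protein-coupled receptors. The gene rgs5a had 606, 799 and 1213 normalised CPM in mutant PECs, against 353, 219.7 and 381 normalised CPM in wild-type PECs. Every mutant PEC sample was higher, with a log2 fold change of 1.48 ± 0.32 (SE), adjusted p = 0.0116. EECs gave 249, 200.4 and 386 normalised CPM in mutant EECs, against 96.0, 116, 157 and 228 normalised CPM in wild-type EECs. The 3 wild-type EEC samples of the fit lay under all mutants, but replicate 4 lay among them. The log2 fold change in EECs was 1.15 ± 0.28 (SE), adjusted p = 0.0538, and it no longer passed with all 4 wild-type samples (adjusted p = 0.214) or without wild-type EEC replicate 1 (0.189), wild-type replicate 2 (0.137) or mutant replicate 3 (0.173). For its relative rgs4 the PEC levels overlapped, at 248, 291 and 480.1 normalised CPM in mutant PECs, against 169, 129 and 277 normalised CPM in wild-type PECs. Its log2 fold change did not pass in PECs (0.86 ± 0.33 (SE), adjusted p = 0.152) or in EECs (-0.03 ± 0.26 (SE), adjusted p = 0.981), although it was called in PECs without wild-type PEC replicate 3 (1.18, adjusted p = 0.034).

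The gene ptpn11b encodes a zebrafish form of Shp2, a tyrosine phosphatase that carries signals from receptor tyrosine kinases to Ras and ERK. It stood at 54.2, 52.9 and 55.0 normalised CPM in mutant PECs, against 27.3, 26.0 and 24.4 normalised CPM in wild-type PECs. The 3 samples of each group were tightly grouped and the log2 fold change was 1.07 ± 0.25 (SE), adjusted p = 0.0183. In EECs the groups overlapped, at 40.2, 49.4 and 27.8 normalised CPM in mutant EECs, against 33.8, 28.3, 11.8 and 33.4 normalised CPM in wild-type EECs (log2 fold change 0.62 ± 0.37 (SE), adjusted p = 0.491). A feedback inhibitor of the same pathway, spry2, was called in EECs and not in PECs. It overlapped in PECs, at 18.1, 24.1 and 16.0 normalised CPM in mutant PECs, against 18.9, 11.5 and 29.1 normalised CPM in wild-type PECs, with a log2 fold change of 0.00 (95% interval -0.75 to 0.74). EECs had 61.2, 49.3 and 43.9 normalised CPM in mutant EECs, against 28.6, 23.0, 31.3 and 22.7 normalised CPM in wild-type EECs. All mutant EECs were higher than all 4 wild-type samples, with a log2 fold change of 0.87 ± 0.23 (SE), adjusted p = 0.0833. This call was lost when any one of wild-type EEC replicates 1 to 3 or mutant EEC replicates 1 and 2 was left out (adjusted p up to 0.375). The docking protein gene gab1, which recruits Shp2, had a log2 fold change of 0.06 in PECs and -0.66 ± 0.21 (SE), adjusted p = 0.149 in EECs, where all mutants were under the wild-type samples without passing.

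In those same fits edgeR called no other signalling gene in the mutants of either tissue. The scaffold gene dlg1 stood at 12.9, 10.4 and 9.01 normalised CPM in mutant EECs, against 3.07, 5.88, 3.44 and 11.7 normalised CPM in wild-type EECs, with mutants above the 3 wild-type samples of the fit and replicate 4 among them, and it did not pass (log2 fold change 1.32 ± 0.42 (SE), adjusted p = 0.139). It was called in EECs by DESeq2 (1.34, adjusted p = 0.0187), in the fit of all 12 samples (1.34, adjusted p = 0.0565) and without wild-type EEC replicate 2 (1.71, adjusted p = 0.0973). For the serine-threonine kinase gene pim3 the PEC groups did not overlap, at 21.3 to 38.7 normalised CPM in mutant PECs and 14.9 to 18.5 normalised CPM in wild-type PECs (log2 fold change 0.78 ± 0.31 (SE), adjusted p = 0.158), and it was called without mutant PEC replicate 3 (0.95, adjusted p = 0.0858). The values in PECs were 0.21 for the casein kinase gene csnk1a1, -0.18 for cab39l, a scaffold of the LKB1 kinase complex, -0.18 for the inositol phosphate kinase gene ip6k2b and 0.37 for the phosphatidylinositol transfer gene pitpnbl, all as log2 fold changes. In EECs the same genes were at 0.11, -0.08, 0.02 and -0.12, in that order.

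Among 10 genes for transporters and organelle proteins, 3 were lower in mutant PECs. The zinc transporter gene slc30a2 showed the largest fold change of the whole list. Zinc transporters of its family move zinc out of the cytosol into vesicles. Its levels were 0.324, 0.108 and 0.0931 normalised CPM in mutant PECs, against 11.0, 22.1 and 44.4 normalised CPM in wild-type PECs. The mutant libraries held 13, 3 and 3 counts, against 393, 578 and 3029 in wild type, so the fitted log2 fold change of -7.09 ± 0.65 (SE), adjusted p = 2.34e-05 rests on very few mutant counts. It was -6.50 without wild-type PEC replicate 3 and -7.92 without mutant PEC replicate 1. EECs of either genotype had hardly any, with 0.0199, 0.226 and 0 normalised CPM in mutant EECs (1, 7 and 0 counts) and 0.0691, 0.397, 0.0724 and 0.842 in wild-type EECs (4, 14, 2 and 19 counts).

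The mitochondrial carrier gene slc25a14, a relative of the uncoupling proteins, was lower in mutants of both tissues. It had 55.0, 85.7 and 107 normalised CPM in mutant PECs, against 191, 184 and 217 normalised CPM in wild-type PECs. No mutant PEC sample reached the wild-type range (log2 fold change -1.24 ± 0.29 (SE), adjusted p = 0.0175), and the call was lost only without mutant PEC replicate 1 (adjusted p = 0.114) among the single samples left out. In EECs it had 44.5, 58.8 and 69.2 normalised CPM in mutant EECs, against 131, 122, 147 and 173 normalised CPM in wild-type EECs, without overlap and with a log2 fold change of -1.25 ± 0.23 (SE), adjusted p = 0.0125. The organic anion transporter gene slco5a1a had 10.8, 10.5 and 11.5 normalised CPM in mutant PECs, against 20.0, 21.9 and 28.0 normalised CPM in wild-type PECs. The mutants were closely grouped and all lower, with a log2 fold change of -1.07 ± 0.29 (SE), adjusted p = 0.0399. Leaving out wild-type PEC replicate 2 (adjusted p = 0.132), mutant replicate 1 (0.168) or mutant replicate 2 (0.142) lost that call. In EECs slco5a1a ranged over 5.92 to 7.81 normalised CPM in mutant EECs and 5.54 to 17.1 normalised CPM in wild-type EECs, with wild-type replicate 3 below all mutants and no call (log2 fold change -0.90 ± 0.43 (SE), adjusted p = 0.372) unless that replicate was left out (-1.25, adjusted p = 0.0852).

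A pair of transporter genes was called in EECs alone. For slc16a9b, of the monocarboxylate transporter family, EECs had 316, 254 and 246 normalised CPM in mutant EECs, against 112, 84.9, 72.2 and 93.1 normalised CPM in wild-type EECs. Mutant EECs were all higher (log2 fold change 1.56 ± 0.23 (SE), adjusted p = 0.00353), and the call held under all 15 alternatives. PECs overlapped between genotypes, at 276, 260.0 and 230.0 normalised CPM in mutant PECs, against 261, 216 and 490.5 normalised CPM in wild-type PECs, with a log2 fold change of -0.31 ± 0.30 (SE), adjusted p = 0.617. The multidrug resistance family gene abcc5, which in human cells exports cyclic nucleotides, had 124, 61.7 and 99.1 normalised CPM in mutant EECs, against 51.8, 35.5, 36.4 and 60.9 normalised CPM in wild-type EECs. Mutants were higher than all wild-type EECs, by a log2 fold change of 1.17 ± 0.28 (SE), adjusted p = 0.0447, and the call was lost without wild-type EEC replicate 2 or 3 or mutant EEC replicate 1 or 3 (adjusted p up to 0.203). In PECs abcc5 stood at 69.8, 82.4 and 74.2 normalised CPM in mutant PECs, against 23.2, 30.2 and 93.1 normalised CPM in wild-type PECs. The mutants lay above wild-type replicates 1 and 2 and below replicate 3, so it did not pass (log2 fold change 0.67 ± 0.41 (SE), adjusted p = 0.399), and it was called without replicate 3 (1.48, adjusted p = 0.00537).

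The other organelle genes were called in neither tissue in those fits. For tango2, named for transport and Golgi organization, the groups did not overlap in either: it had 398, 455 and 529 normalised CPM in mutant PECs, against 313, 229 and 339.9 normalised CPM in wild-type PECs, and 270.1, 306 and 349 normalised CPM in mutant EECs, against 412, 424, 502 and 748 normalised CPM in wild-type EECs. The log2 fold change was 0.67 ± 0.26 (SE), adjusted p = 0.154 in PECs and -0.57 ± 0.20 (SE), adjusted p = 0.2 in EECs. In PECs tango2 was called without wild-type PEC replicate 3 (0.75, adjusted p = 0.0723), with library totals and in the fit of all 12 samples. The trafficking gene dopey2 lay above wild type in PECs at 194 to 244 normalised CPM in mutant PECs and 126 to 184 normalised CPM in wild-type PECs (log2 fold change 0.45 ± 0.26 (SE), adjusted p = 0.374). The mitochondrial cation exchanger gene letm1 lay below it at 22.9 to 45.3 normalised CPM in mutant PECs and 53.5 to 76.7 normalised CPM in wild-type PECs (log2 fold change -0.75 ± 0.30 (SE), adjusted p = 0.166). The proton pump subunit gene atp6v0a1a and the phospholipid-binding gene cpne1 had log2 fold changes of 0.01 and 0.34 in PECs. In EECs the values were -0.21 for atp6v0a1a, 0.08 for cpne1, 0.16 for dopey2 and -0.16 for letm1.

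Of the 5 metabolic genes, 2 were called in mutant PECs in opposite directions. Glutaminase, which converts glutamine to glutamate, is encoded by glsb. Its levels were 7.24, 4.64 and 9.00 normalised CPM in mutant PECs, against 194, 127 and 254 normalised CPM in wild-type PECs. The wild-type samples were all far above the mutants, by a factor of 27.0 in the fit, at a log2 fold change of -4.75 ± 0.36 (SE), adjusted p = 5.11e-06. Leaving out wild-type PEC replicate 3 gave -4.54. In EECs glsb was at the level of the mutant PECs in both genotypes, with 9.59, 6.18 and 9.01 normalised CPM in mutant EECs, against 11.9, 11.8, 7.75 and 9.22 normalised CPM in wild-type EECs, and the log2 fold change was -0.39 (95% interval -1.18 to 0.40).

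Ornithine decarboxylase, the first enzyme of polyamine synthesis, is encoded by odc1. It had 289.9, 318 and 119 normalised CPM in mutant PECs, against 80.9, 65.2 and 127 normalised CPM in wild-type PECs. Mutant replicates 1 and 2 were well above wild type, while mutant replicate 3 fell just under wild-type replicate 3, which made it the single called gene with overlapping PEC groups. The log2 fold change was 1.43 ± 0.36 (SE), adjusted p = 0.0289, and leaving out wild-type PEC replicate 1 or 2 or mutant PEC replicate 1 or 2 brought the adjusted p to between 0.108 and 0.13. In EECs the gap was wider than the spread, at 499, 423 and 325 normalised CPM in mutant EECs, against 190.1, 122, 197 and 157 normalised CPM in wild-type EECs, with every mutant above every wild-type sample and a log2 fold change of 1.27 ± 0.23 (SE), adjusted p = 0.0124. The branched-chain keto acid dehydrogenase kinase gene bckdk had 1876 to 2384 normalised CPM in mutant PECs and 1298 to 2054 normalised CPM in wild-type PECs (log2 fold change 0.35 ± 0.27 (SE), adjusted p = 0.503) and a log2 fold change of -0.48 ± 0.24 (SE), adjusted p = 0.41 in EECs. The GTP cyclohydrolase gene gch2, of pteridine synthesis, and the fatty acid elongase gene elovl5 were low in PECs. All mutant PECs were below wild type for both, at 6.71 to 9.96 normalised CPM in mutant PECs and 10.1 to 14.2 normalised CPM in wild-type PECs of gch2 and 1.30 to 1.92 normalised CPM in mutant PECs and 2.41 to 9.32 normalised CPM in wild-type PECs of elovl5, but neither passed (adjusted p = 0.403 and 0.108). In PECs elovl5 was called by DESeq2 (-1.55, adjusted p = 0.0323), and by edgeR with either other filter on low counts, in the fit of all 12 samples and without wild-type PEC replicate 2.

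Among the 5 genes of the cytoskeleton and of protein turnover, lpp was called, in PECs. It encodes a LIM protein of focal adhesions. Its levels were 1.47, 3.42 and 1.58 normalised CPM in mutant PECs, against 8.05, 6.97 and 15.5 normalised CPM in wild-type PECs. The mutants were all lower, with a log2 fold change of -2.21 ± 0.47 (SE), adjusted p = 0.0113 and -1.82 without wild-type PEC replicate 3. In EECs the groups overlapped, at 16.5, 10.6 and 7.25 normalised CPM in mutant EECs, against 13.6, 13.9, 20.3 and 16.5 normalised CPM in wild-type EECs (log2 fold change -0.51 ± 0.35 (SE), adjusted p = 0.577). The gene vill was the least steady of the list in wild-type PECs, with 2.02, 1.33 and 1.49 normalised CPM in mutant PECs, against 0.0841, 0.383 and 6.12 normalised CPM in wild-type PECs, or 81, 37 and 48 counts in mutants against 3, 10 and 417 counts in wild type. The mutants lay above wild-type replicates 1 and 2 and below replicate 3. Its log2 fold change was -0.40 ± 0.98 (SE), adjusted p = 0.867 (95% interval -2.51 to 1.71), and without wild-type PEC replicate 3 its direction turned and it was called higher in mutants (2.79, adjusted p = 0.0424). The filopodial myosin gene myo10 lay below wild type at 32.1 to 43.8 normalised CPM in mutant PECs and 44.2 to 87.6 normalised CPM in wild-type PECs without passing (log2 fold change -0.65 ± 0.29 (SE), adjusted p = 0.221). For fam107b and the ubiquitin ligase gene ube4b the log2 fold changes in PECs were -0.11 and 0.24. In EECs the group had 0.33 for vill, 0.50 for myo10, 0.11 for fam107b and 0.03 for ube4b.

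**Figure D3:**
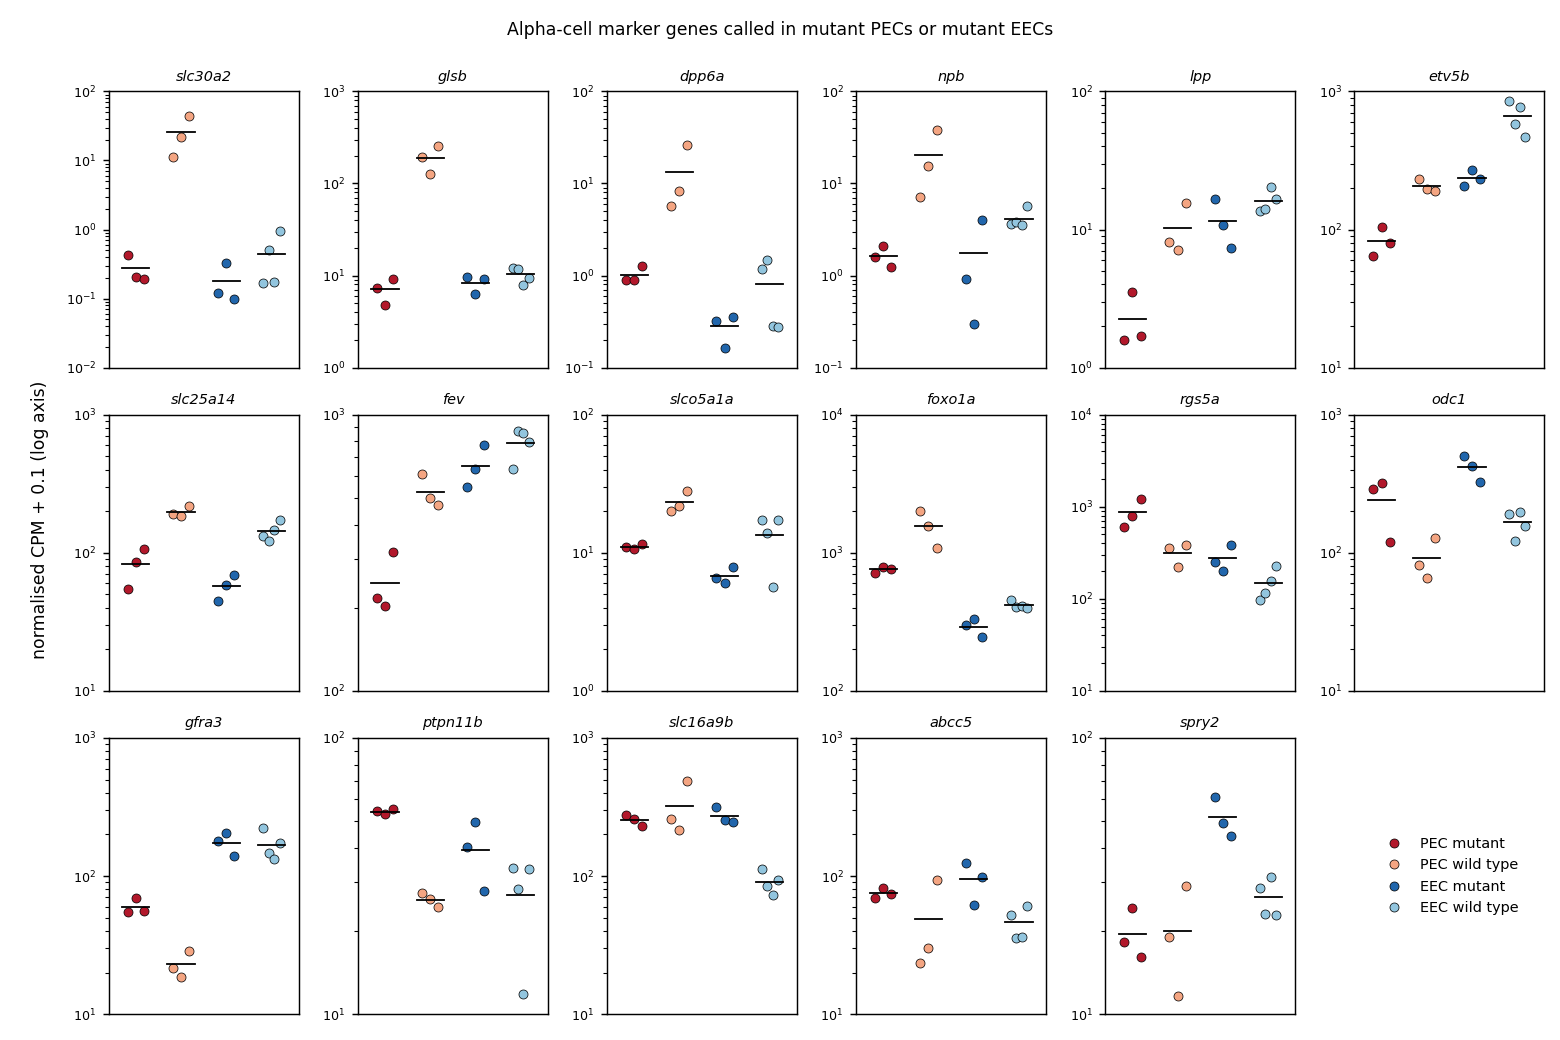
Normalised CPM + 0.1, on a log axis, in every sample for the 17 alpha-cell marker genes called in mutant PECs or mutant EECs, with 1 point per sample and a line at the mean of each group. In wild-type PECs, slc30a2, glsb, dpp6a and npb stand above the other 3 groups, while etv5b and slc25a14 are lower and odc1 and rgs5a higher in the mutants of both tissues.

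Whether the effect of the mutation differed between the tissues was tested as an interaction in one fit of 12 samples, as the EEC log2 fold change minus the PEC one. It was called for 5 of the 43 genes, or 11.6%, against 3.58% of all genes tested. More positive in EECs were 3 of them (1.71% of all genes were) and more negative 2 (1.87% of all genes were), and without wild-type PEC replicate 3 there were 6, against 4.61% of all genes. The gene gained was vill, whose interaction value turned from 0.76 to -2.47 (adjusted p = 0.0986) without that sample. The interaction was called for 17.4% of the beta column, 17.4% of delta, 27.3% of epsilon and 6.12% of pan-endocrine. The largest of the 5 interaction values was that of slc30a2 at 5.96 ± 1.44 (SE), adjusted p = 0.0365, but its EEC side rests on a few counts. The filter on low counts had removed slc30a2 from the EEC fit. It entered the fit of 12 samples through its wild-type PEC counts (393, 578 and 3029), the only group where it stood well above the floor, so its value is set largely by that group. Without mutant EEC replicate 2 it was 3.64 and no longer passed (adjusted p = 0.682). It was 6.57 without mutant EEC replicate 1, 6.80 without mutant PEC replicate 1 and 7.30 without wild-type EEC replicate 2. The test of glsb gave 4.38 ± 0.45 (SE), adjusted p = 3.87e-05, where mutant PECs fell and the EEC groups were both near the mutant PEC level. For slc16a9b the difference was 1.89 ± 0.39 (SE), adjusted p = 0.0132, where mutant EECs rose and the PEC groups overlapped. These 2 kept their call under all 20 alternatives. The effect on tango2 was more negative in EECs than in PECs (-1.23 ± 0.31 (SE), adjusted p = 0.0481), and so was that on gfra3 (-1.36 ± 0.36 (SE), adjusted p = 0.0588). The tango2 call was lost without mutant PEC replicate 2 or 3, wild-type PEC replicate 2, mutant EEC replicate 1 or 2 or wild-type EEC replicate 3 (adjusted p up to 0.167). That of gfra3 was lost without mutant PEC replicate 2, wild-type PEC replicate 1 or 2, mutant EEC replicate 1 or 3 or wild-type EEC replicate 1 (adjusted p up to 0.176). For 9 genes called in 1 tissue alone the interaction did not pass, among them npb at 2.52 ± 1.05 (SE), adjusted p = 0.31, lpp at 1.73 ± 0.62 (SE), adjusted p = 0.21 and spry2 at 0.89 ± 0.43 (SE), adjusted p = 0.409. A difference between tissues was thus not shown for npb, lpp, fev, slco5a1a, foxo1a, ptpn11b, abcc5 and spry2. The remaining gene, dpp6a, had been filtered out of the EEC fit and entered this fit through its PEC counts. Its EEC counts were 11, 2 and 6 in mutants and 63, 49 and 5 in the wild-type samples of the fit. They are too few for the test to decide whether its effect differed. For the genes called in both tissues the interaction did not pass either, at -0.35 for etv5b (95% interval -1.03 to 0.34), 0.00 for slc25a14 (-0.76 to 0.75), -0.15 for odc1 (-1.14 to 0.84) and -0.33 for rgs5a (-1.26 to 0.60).

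The comparison of wild-type EECs with wild-type PECs asked how much of the alpha-cell list the gut hormone cells share. Tissue, age and the way the cells were dissociated went together and cannot be told apart. Called were 20 of the 43 genes, or 46.5%, against 34.2% of all genes tested. Higher in EECs were 6 (18.4% of all genes were) and lower were 14 (15.8% of all genes were), with a median log2 fold change of -0.21 over the list and -0.02 over all genes. Over the list, EECs in the fit lay wholly above PECs for 6 genes (21.1% of all genes) and wholly below for 16 (22.3% of all genes). The samples did not overlap for 18 of the 20 called genes, which again adds no support to calls made on the same samples. Without wild-type PEC replicate 3, 25 genes were called, against 34.7% of all genes, all 20 included plus ip6k2b, lpp, rgs4, spry2 and vill. The log2 fold changes of these added genes were then 0.93, 1.04, 0.79, 0.82 and 5.16, in that order. This comparison shares its wild-type samples with both mutant comparisons. Between the tissues, 52.2% of the beta column was called, 63.0% of delta, 70.5% of epsilon and 49.0% of pan-endocrine.

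Lowest in EECs relative to PECs were slc30a2, glsb, dpp6a and npb. The filter on low counts had removed slc30a2 and dpp6a from the EEC fit. Both entered this fit through their wild-type PEC counts, so the size of their values is set largely by that group. For slc30a2 the wild-type EEC samples of the fit held 4, 14 and 2 counts. The slc30a2 values were 0.0691, 0.397, 0.0724 and 0.842 normalised CPM in wild-type EECs, against 11.0, 22.1 and 44.4 normalised CPM in wild-type PECs, a log2 fold change of -7.13 ± 0.79 (SE), adjusted p = 3.31e-05, and -8.44 without wild-type EEC replicate 2. For glsb the levels were 11.9, 11.8, 7.75 and 9.22 normalised CPM in wild-type EECs, against 194, 127 and 254 normalised CPM in wild-type PECs, with a log2 fold change of -4.16 ± 0.34 (SE), adjusted p = 3.06e-06. The dpp6a levels were 1.09, 1.39, 0.181 and 0.177 normalised CPM in wild-type EECs, against 5.64, 8.12 and 26.0 normalised CPM in wild-type PECs, and the log2 fold change was -3.82 ± 0.77 (SE), adjusted p = 0.00274, and -2.96 without wild-type PEC replicate 3. For npb, with 3.58, 3.69, 3.40 and 5.58 normalised CPM in wild-type EECs, against 6.95, 15.2 and 38.1 normalised CPM in wild-type PECs, the log2 fold change was -2.46 ± 0.53 (SE), adjusted p = 0.00455, and -1.68 without the same sample. The comparison of mutant PECs, which uses the same wild-type PEC samples, gave -7.09, -4.75, -3.80 and -3.67 for these genes in the same order. The scaffold gene dlg1 followed, at 3.07, 5.88, 3.44 and 11.7 normalised CPM in wild-type EECs, against 16.2, 20.1 and 22.6 normalised CPM in wild-type PECs (log2 fold change -2.22 ± 0.40 (SE), adjusted p = 0.0014). The other 9 lower genes ran from -0.55 for slc25a14 to -2.12 for myo10, with foxo1a, slc16a9b, bckdk, lepr, rgs5a, pitpnbl and gch2 between them. The call of slc25a14 was lost when any one of the 6 samples but wild-type PEC replicate 3 was left out (adjusted p up to 0.236), and that of gch2 without wild-type EEC replicate 2 or wild-type PEC replicate 1 or 2 (up to 0.179).

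Higher in EECs was first of all fam107b, at 106, 90.1, 106 and 215 normalised CPM in wild-type EECs, against 13.1, 9.77 and 9.86 normalised CPM in wild-type PECs (log2 fold change 3.21 ± 0.27 (SE), adjusted p = 4.57e-06). The Ret co-receptor gene gfra3 had 223, 146, 132 and 174 normalised CPM in wild-type EECs, against 21.6, 18.6 and 28.8 normalised CPM in wild-type PECs, with a log2 fold change of 2.88 ± 0.29 (SE), adjusted p = 1.81e-05. For etv5b the levels were 851, 580.0, 765 and 465 normalised CPM in wild-type EECs, against 233, 197 and 189.6 normalised CPM in wild-type PECs (log2 fold change 1.83 ± 0.25 (SE), adjusted p = 1.97e-04). The elongase gene elovl5 had 20.1, 18.2, 9.30 and 17.6 normalised CPM in wild-type EECs, against 3.31, 2.41 and 9.32 normalised CPM in wild-type PECs, where wild-type PEC replicate 3 touched the EEC range. Its log2 fold change was 1.70 ± 0.52 (SE), adjusted p = 0.029, and 2.44 without that sample, while without wild-type PEC replicate 1 or 2 it did not pass (adjusted p = 0.101 and 0.108). For odc1 the log2 fold change was 0.91 ± 0.29 (SE), adjusted p = 0.0331, with overlapping samples and a call lost without wild-type EEC replicate 1 or 3 or wild-type PEC replicate 1 or 2 (adjusted p up to 0.158). Its levels were 190.1, 122, 197 and 157 normalised CPM in wild-type EECs, against 80.9, 65.2 and 127 normalised CPM in wild-type PECs. The sixth, tango2 (log2 fold change 0.62 ± 0.24 (SE), adjusted p = 0.0828), lost its call when any one of the 6 samples but wild-type PEC replicate 3 was left out (adjusted p up to 0.308). Among the 23 genes that did not pass, the log2 fold change ran from -0.91 for slco5a1a to 1.97 for vill (5.16, adjusted p = 6.22e-04 without wild-type PEC replicate 3), and the EEC samples lay wholly below the PEC samples for slco5a1a and ube4b and wholly above for fev and dopey2.

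**Figure D4:**
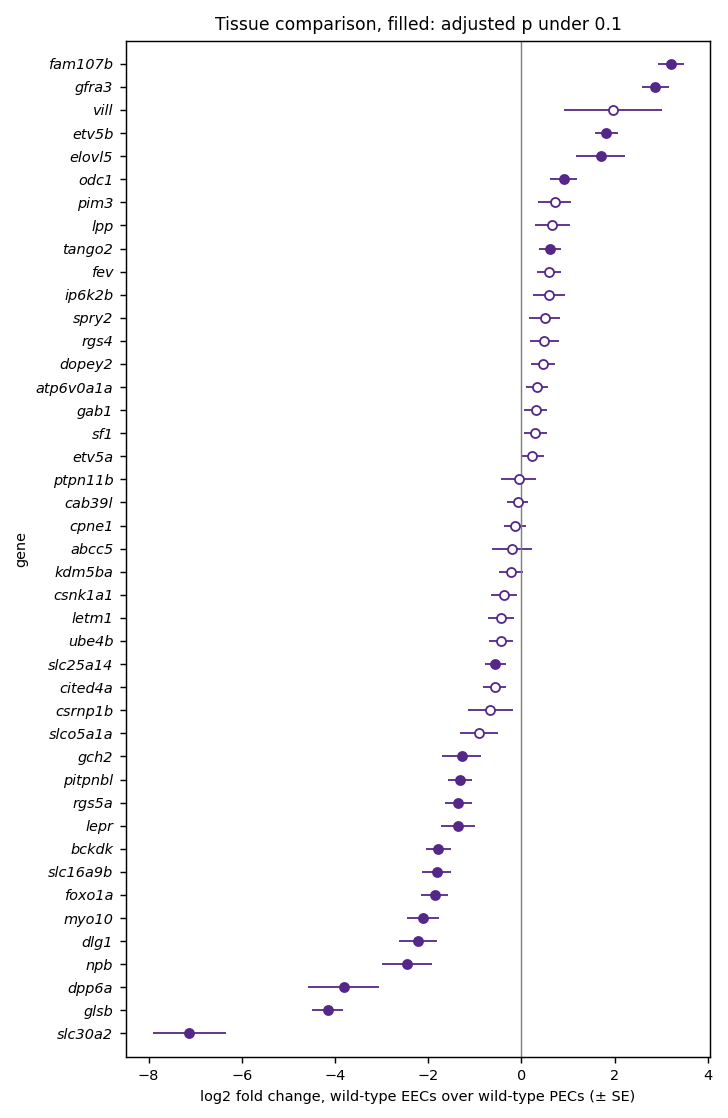
Log2 fold change of the 43 alpha-cell marker genes in wild-type EECs over wild-type PECs, from replicates 1 to 3 of each, with bars of 1 standard error and filled points for an adjusted p under 0.1. The 6 filled points on the right and 14 on the left are spread over both sides of 0, with slc30a2 farthest to the left at -7.13 and fam107b farthest to the right at 3.21. The EEC side of slc30a2 rests on a few counts.

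Several alpha genes belong to the FGF-ERK pathway: etv5a and etv5b are targets, spry2 an inhibitor, gab1 and ptpn11b carriers of the signal. Other genes of that pathway were read from a list of 38, of which 32 had a gene ID. In PECs 31 were tested, 2 were higher and 3 lower in mutants, so 16.1% were called, against 11.2% of all genes tested. The receptor genes fgfr1b and fgfr2 were lower, at 6.13 ± 3.12 normalised CPM in mutants and 31.3 ± 11.0 in wild type for fgfr1b, and 4.22 ± 2.22 and 16.7 ± 2.58 for fgfr2 (SD, n = 3 each). Their log2 fold changes were -2.35 ± 0.44 (SE), adjusted p = 0.00496, and -1.98 ± 0.43 (SE), adjusted p = 0.0116. The inhibitor gene il17rd was lower too (-2.37 ± 0.45 (SE), adjusted p = 0.00542), whereas the receptor gene fgfr4 was higher, at 55.4 ± 16.0 normalised CPM in mutant PECs and 26.2 ± 3.44 in wild-type PECs (SD, n = 3 each; adjusted p = 0.0369). The fifth was the ERK phosphatase gene dusp6, named after its values were seen (0.90 ± 0.26 (SE), adjusted p = 0.0541). In EECs, 2 of 31 were called (6.45%, against 4.18% of all genes): the receptor gene fgfr3 was higher in mutants (1.60 ± 0.33 (SE), adjusted p = 0.0223) and etv1, an ETS factor of the same subfamily as etv5b, was lower. It had 76.7 ± 6.62 normalised CPM in mutant EECs and 282 ± 57.6 in wild-type EECs 1 to 3 (SD, n = 3 each; log2 fold change -1.91 ± 0.22 (SE), adjusted p = 8.16e-04).

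In the RGS family besides rgs4 and rgs5a, 11 genes were tested in PECs, 1 was higher and 2 were lower in mutants (27.3% called, against 11.2% of all genes). The gene rgs16 had 3.58 ± 0.475 normalised CPM in mutant PECs and 83.9 ± 21.5 in wild-type PECs (SD, n = 3 each), a log2 fold change of -4.54 ± 0.33 (SE), adjusted p = 4.00e-06, opposite in sign to rgs5a. Also lower was rgs3a (-3.08 ± 0.38 (SE), adjusted p = 2.84e-04), and rgs20 was higher (1.39 ± 0.27 (SE), adjusted p = 0.00616). In EECs edgeR called 0 of 12, with 1 at an unadjusted p under 0.05 and 0 called by DESeq2. Paralogs of the alpha genes could be matched for 19 of 30. In mutant PECs 3 of the 19 were called (15.8%, against 11.2% of all genes), all of them higher (5.43% of all genes were). These were gab2 (1.55 ± 0.49 (SE), adjusted p = 0.0787), kdm5bb (0.94 ± 0.31 (SE), adjusted p = 0.0915) and csrnp1a (0.86 ± 0.26 (SE), adjusted p = 0.0644), while their partners gab1, kdm5ba and csrnp1b were not called. In EECs edgeR and DESeq2 both called 0 of 19, with 4 at an unadjusted p under 0.05 in edgeR. Reads that fit a paralog equally well may have been lost or divided in the counting, and this cannot be read from the tables.

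Between the wild-type tissues, 8 of 31 tested genes of the FGF-ERK list were called, 5 higher and 3 lower in EECs, or 25.8% against 34.2% of all genes. The largest were fgfr1b (-6.11 ± 0.68 (SE), adjusted p = 3.55e-05), the ETS factor gene etv4 (4.31 ± 0.53 (SE), adjusted p = 7.65e-05), the ERK phosphatase gene dusp5 (2.45 ± 0.32 (SE), adjusted p = 1.29e-04) and il17rd (-2.37 ± 0.52 (SE), adjusted p = 0.00466). The fgfr1b level was low in wild-type EECs 1 to 3, at 0.443 ± 0.416 normalised CPM, against 31.3 ± 11.0 in wild-type PECs (SD, n = 3 each). Of the RGS family 4 of 12 were higher in EECs and 1 lower (41.7% called), among them rgs16 (2.22 ± 0.29 (SE), adjusted p = 1.26e-04), rgs12a (1.11 ± 0.35 (SE), adjusted p = 0.0343) and rgs3b (-1.84 ± 0.33 (SE), adjusted p = 0.00116), while rgs18 had 0.728 ± 0.423 normalised CPM in wild-type EECs 1 to 3 and 0.0491 ± 0.0316 in wild-type PECs, at the floor (SD, n = 3 each). Of the paralogs 5 of 19 were higher and 3 lower (42.1% called), csrnp1a the farthest down (-4.34 ± 0.79 (SE), adjusted p = 0.00218), followed by cited4b (-1.23 ± 0.28 (SE), adjusted p = 0.00652), with cab39l1 higher (1.24 ± 0.23 (SE), adjusted p = 0.00168) and etv4 in both lists. The interaction, called for 3.58% of all genes, was called for 1 of 31 genes of the FGF-ERK list, etv1 (-2.01 ± 0.31 (SE), adjusted p = 0.00178), and for 3 of 13 of the RGS family, namely rgs16 (4.22 ± 0.40 (SE), adjusted p = 1.81e-05), rgs3a (2.52 ± 0.51 (SE), adjusted p = 0.0126) and rgs20 (-2.01 ± 0.47 (SE), adjusted p = 0.0298). Of the 19 paralogs edgeR called 0, with 3 at an unadjusted p under 0.05 and 1 called by DESeq2.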

How the data were processed

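GFP+ cells were sorted by FACS, and cDNA and libraries were made with Smart-seq2 and Nextera-XT, which keeps no strand, so a gene and an antisense partner cannot be told apart. Reads were trimmed, mapped with STAR 2.5.4b to GRCz11 and counted per gene by its GeneCounts mode. The authors deposited raw counts, 1 table per sample, and which strand column was kept is not given in the sources used here. Gene symbols were matched to the gene IDs first through the study's own supplementary lists that pair IDs with names, and then through a reference gene list.

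The members, the pathway lists and the tests were chosen with earlier results of these data known. Counts were tested with edgeR 4.0.16 (glmQLFit with robust estimation, TMM, filterByExpr defaults) under R 4.3.3, and Benjamini-Hochberg adjustment ran over all genes tested. A gene was called at an adjusted p under 0.1. The study's FDR threshold and triplicates were followed, so wild-type EEC replicate 4 gave levels but entered no main fit. Standard errors were the log2 fold change over the square root of F, and 95% intervals used the same error with the fit's degrees of freedom. The fits were tested on simulated counts with known changes, in a single draw per comparison. The share of false calls by edgeR was above the nominal level in PECs and between tissues and near it otherwise. DESeq2, simulated for PECs and EECs only, was far above it. Most genes given the smaller of the known changes were missed. A single draw cannot rank the comparisons by their share of false calls. Intervals cover the spread between these samples, which the study describes as independent preparations. That spread may in part be technical, since nothing says that replicates came from separate clutches. TMM factors ran from 0.874 to 1.16.

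Every list gene was named within its role group. Values in every sample, the fold change, its error and the adjusted p were given for list genes called in a mutant comparison or the interaction, and for the 5 largest called in each direction between tissues. Of other lists, at most 4 called genes per comparison were named by fold size. Alternatives were DESeq2 1.42.0, RLE factors, library totals, no filter or a stricter filter on low counts, a threshold of 0.05, a replicate block, leaving out each sample, all 4 wild-type EEC samples, and one fit of 12 samples. Of the genes set aside from the source list, not all are reported here. Levels were not compared between genes, since gene lengths were not used. Tables were handled with pandas 2.3.3 and drawn with matplotlib 3.10.9.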

Additional observations from a re-analysis of the deposited data

Results flagged for a closer look

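Chance alone sets a sample apart in about 1 in 20 groups of this size. In the 4 wild-type EEC samples a single sample lay far from the other three for 4 of the 43 alpha genes. The share of all genes set apart by the same rule was not counted, so these 4 are not read as more than that rate would give. Replicate 4 was the highest for csrnp1b at 52.5 normalised CPM, for fam107b at 215 normalised CPM and for npb at 5.58 normalised CPM. Replicate 1 was set apart for bckdk, at 599.9 normalised CPM. Replicate 4 entered no main fit, and its part in the other results was not tested beyond the fits that include it.

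The interaction test of edgeR, of whether the effect of the mutation differed between EECs and PECs, called 5 genes, of which glsb and slc16a9b held under every alternative. The EEC log2 fold change minus the PEC one was 5.96 for slc30a2 (adjusted p = 0.0365), 4.38 for glsb (adjusted p = 3.87e-05) and 1.89 for slc16a9b (adjusted p = 0.0132). It was -1.23 for tango2 (adjusted p = 0.0481) and -1.36 for gfra3 (adjusted p = 0.0588). For glsb, all 3 mutant PEC samples were lower than all wild-type PEC samples, and for slc16a9b all 3 mutant EEC samples were higher than all wild-type EEC samples. For tango2 all mutant samples were higher in PECs and lower in EECs. The slc30a2 value rests on 8 counts over the mutant EEC samples and did not pass without mutant EEC replicate 2 (3.64, adjusted p = 0.682). The gene entered that fit through its wild-type PEC counts and had been filtered out of the EEC fit. The tango2 and gfra3 calls were each lost when any of 6 single samples was left out.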

How the results depend on the processing

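For the 46 values of called genes, 616 of 701 values under the alternatives kept their direction and their side of the threshold, 85 missed the threshold and none changed sign. Called under every alternative were 9 of the 14 genes in PECs (dpp6a, etv5b, gfra3, glsb, lpp, npb, ptpn11b, rgs5a and slc30a2), 4 of 7 in EECs (etv5b, odc1, slc16a9b and slc25a14), 15 of 20 between tissues and 2 of 5 in the interaction (glsb and slc16a9b). When single samples were left out, the count of alpha genes called ran from 9 to 19 in PECs, 5 to 6 in EECs, 15 to 25 between tissues and 3 to 7 in the interaction. DESeq2 called 15, 9, 18 and 7 of them in the same order of comparisons. Over all genes it called 2940 of 21381 tested in PECs, 1705 of 21319 in EECs, 7651 of 24351 between tissues and 1378 of 22864 in the interaction. With library totals in place of TMM, an alternative chosen after seeing the data, the counts were 13, 7, 19 and 5. The all-gene counts were then 1872, 780, 6134 and 709.

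Over all genes, PEC calls were 2089 and ran from 1148 to 3873 with single samples left out. Calls between tissues were 6602 and ran from 4861 to 7046 in the same way. EEC calls were 780, against 1705 with DESeq2, 477 at the threshold of 0.05 and 391 to 678 with single samples left out. Interaction calls were 755, against 1378 with DESeq2, 480 at 0.05 and 503 to 1017 with single samples left out. The cause of these shifts was not tested. Same-numbered samples of the groups compared did not deviate together (r between -0.138 and 0.091 in the comparisons of 2 groups), so the numbers were not taken to pair samples. With the replicate block 1199 genes were called in PECs, 568 in EECs, 6067 between tissues and 579 in the interaction, and 11, 6, 19 and 5 alpha genes. Genes under a few normalised CPM, such as slc30a2, dpp6a and vill, were limited by counts.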
